A study of Mus musculus with 4 samples.

Results

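Differentiating muscle cells swap several ubiquitous enzymes of energy metabolism for isoforms that are made almost only in skeletal muscle and heart. In all, 9 such genes are described here, chosen by their names and functions: 9 of the 19751 genes named on the array. They are the creatine kinases Ckm and Ckmt2, the glycogen and glycolysis enzymes Pygm, Pgam2 and Eno3, the oxygen-binding protein gene Mb, and the cytochrome c oxidase subunits Cox6a2, Cox7a1 and Cox8b. Each had 1 probe, taken by the transcript it was designed for, and all 9 were among the 15674 genes that passed the filter on dim signal.

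The cells were C2C12, mouse myoblasts of an established line, which fuse into myotubes once serum is reduced. They were harvested on day 3 of differentiation after culture with interferon-gamma (IFN-γ) at 1 ng/ml, or without the cytokine (control), and nothing else differed between the groups by the labels. Total RNA (8 µg) from IFN-γ-treated cells (Cy5) and control cells (Cy3) was hybridised together on each of 4 Agilent arrays of 1 slide, labelled as biological replicates 1 to 4. No array had the dyes exchanged, so dye and treatment cannot be told apart. Whether each control came from its own culture is not in the labels. The p-values therefore cover the variation among 4 arrays, which may be technical. The labels give the horse serum of the medium as 2% in one field and 10% in another.

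Phosphocreatine is the fast energy reserve of muscle: cytosolic creatine kinase uses it to restore ATP beside the contracting filaments, and the mitochondrial form recharges it. Glycogen phosphorylase releases glucose units from stored glycogen, and phosphoglycerate mutase and enolase are late steps of glycolysis. Myoglobin stores oxygen and carries it towards mitochondria, where cytochrome c oxidase consumes it as the last complex of the respiratory chain. The promoters of many of these genes are bound during differentiation by MyoD-family proteins, which recognise the E-box CANNTG, and by MEF2 factors.

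Values are log2 ratios of IFN-γ-treated over control, normalised within each array, as mean ± SD over 4 arrays, and a gene was called when its adjusted p in limma, over all genes tested, was under 0.05. Over all genes, 19.8% were called higher and 13.9% lower. Replicate 2 stood apart: across genes its ratios correlated with those of the other arrays at 0.63 to 0.72, against 0.86 to 0.90 among the other arrays, where genes are not independent replicates. Of all genes compared, 39.4% had their lowest ratio on replicate 2. Median intensities were 149.5 to 264 in the IFN-γ channel and 79.8 to 97 in the control channel. The loess step removes a difference between the channels that depends on intensity. Centring each array on the median of its probes, with no loess, left the median of the tested genes at 0.70 and moved the shares called to 67% higher and 16.9% lower. Centring on the tested genes gave 30% higher and 35% lower.

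Expression of 7 of the 9 genes fell with IFN-γ, where 13.9% of all tested genes did, none was called higher, and Mb and Ckmt2 did not pass. The median log2 ratio of the 9 genes was −0.83, against 0.03 for all tested genes. Under median centring the median of the 9 was −0.01, which is 0.70 below the all-gene median of that setting, and Eno3, Pygm, Cox7a1 and Mb then had positive log2 ratios that were still below that median. Only Mb was then called higher and only Ckmt2 lower. With centring on the tested genes, 8 of the 9 were called lower, where 35% of all tested genes were. Ckmt2, at −1.27, was among these 8, and Mb was not. The Ckmt2 probe was well above background on 0 of 4 arrays in control cells. Its calls under both forms of centring therefore rest on values near background. In the 7 genes that fell, IFN-γ-treated cells had between 43.8% (Cox8b) and 72.0% (Cox7a1) of the control level. Of them, Ckm, Cox6a2 and Cox8b fell by more than 2-fold. Over all tested genes, 0.983% were called lower and fell at least 2-fold. Without replicate 2 the means of these 3 genes were −0.78, −0.73 and −0.77, short of 2-fold. With centring on the tested genes they were −0.82, −0.72 and −1.02, so only Cox8b reached it. In a bulk RNA sample, fewer myotubes and less of these RNAs in each myotube cannot be told apart.

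**Figure D1:**
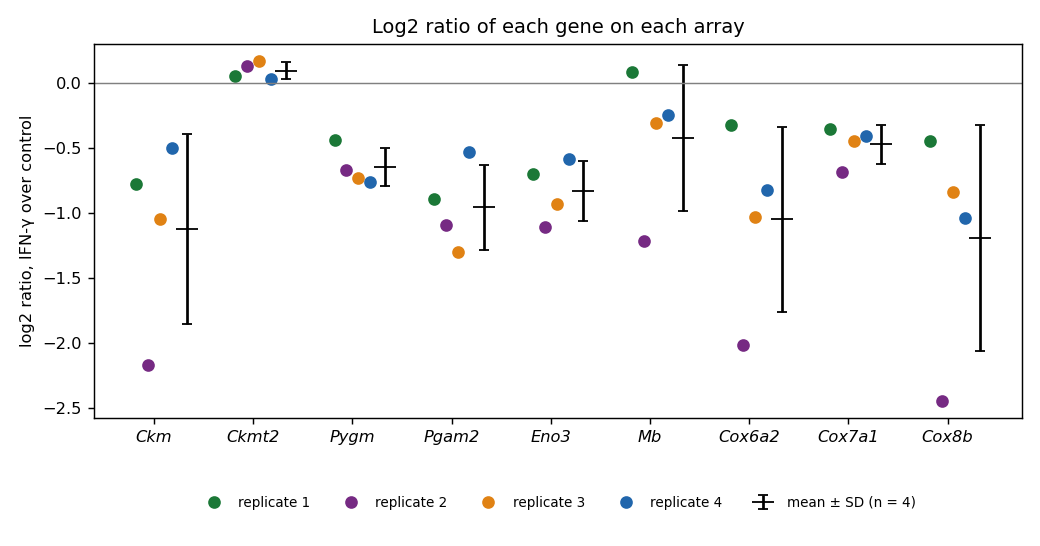
Log2 ratio of IFN-γ-treated over control for each of the 9 genes (x axis) on each of 4 arrays (coloured points), with mean ± SD as black bars. All 4 points lie below 0 for 7 genes, Mb has 1 point above 0 and Ckmt2 has 4. Under median centring without loess, the means of Eno3, Pygm, Cox7a1 and Mb are above 0 and that of Ckmt2 is below 0. All of these are below the all-gene median of 0.70 in that setting.

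The promoters of Ckm, Pgam2, Eno3 and Pygm are shown because these are the 4 genes whose IFN-γ values all lay below all control values. Each sequence is the 250 bases before the gene start in RefSeq (GRCm38.p6), 5′ to 3′ on the strand of the gene. Capitals mark the E-box pattern CANNTG, found on either strand since it reads the same on both, and in Pgam2 also a match to the MEF2 consensus.
Ckm, chr7:19410844-19411093 (+): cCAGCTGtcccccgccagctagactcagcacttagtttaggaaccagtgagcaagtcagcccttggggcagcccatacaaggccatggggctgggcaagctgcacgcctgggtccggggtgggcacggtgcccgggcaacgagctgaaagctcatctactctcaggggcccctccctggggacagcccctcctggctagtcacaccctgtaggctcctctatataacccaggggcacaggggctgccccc
Pgam2, chr11:5803797-5804046 (-): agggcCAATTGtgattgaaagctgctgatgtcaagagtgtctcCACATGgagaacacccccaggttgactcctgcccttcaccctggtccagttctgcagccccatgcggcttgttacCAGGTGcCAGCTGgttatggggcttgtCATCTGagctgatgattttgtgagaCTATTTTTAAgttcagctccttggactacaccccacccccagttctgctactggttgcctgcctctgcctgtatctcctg
Eno3, chr11:70656926-70657175 (+): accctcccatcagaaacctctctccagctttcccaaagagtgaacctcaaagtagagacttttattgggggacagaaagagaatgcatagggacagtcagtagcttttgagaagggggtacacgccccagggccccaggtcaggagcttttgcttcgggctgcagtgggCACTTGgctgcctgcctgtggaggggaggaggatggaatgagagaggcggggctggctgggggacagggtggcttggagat
Pygm, chr19:6384158-6384407 (+): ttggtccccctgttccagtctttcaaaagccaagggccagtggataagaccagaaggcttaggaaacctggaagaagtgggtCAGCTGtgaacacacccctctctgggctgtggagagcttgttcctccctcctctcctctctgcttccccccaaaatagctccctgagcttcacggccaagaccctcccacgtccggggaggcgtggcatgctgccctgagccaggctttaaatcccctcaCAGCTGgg
The RefSeq table held promoters for 8 of the 9 genes, in 10 windows, of which 3 belong to Mb. By the same table Ckm, Cox6a2, Cox7a1 and Cox8b lie on chromosome 7, Pgam2 and Eno3 on 11, Ckmt2 on 13, Mb on 15 and Pygm on 19. All 10 windows held at least 1 CANNTG, against 66.2% of the 32851 windows of all genes, and Pgam2 held 5. The MEF2 consensus matched 1 of the 10 windows, that of Pgam2, against 2.92% of all windows. The pattern TTCNNNGAA, bound by STAT factors, matched 1 window, that of Ckmt2, against 7.02%, and TNAAGGTCA, bound by estrogen-related receptors, matched 0, against 1.14%. All patterns were searched on both strands, matches of different patterns in these windows did not overlap, and a match describes the letters only.

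Ckm, which encodes the cytosolic creatine kinase of muscle, fell. Its normalised log2 intensity was 10.34, 9.27, 10.36 and 10.36 in IFN-γ-treated cells on replicates 1 to 4, against 11.12, 11.44, 11.41 and 10.87 in control cells. Every IFN-γ value lay below every control value, and replicate 2 was the lowest of the IFN-γ values and the highest of the control values. The log2 ratios were −0.78, −2.17, −1.04 and −0.51. Their mean of −1.12 ± 0.73 (SD, n = 4) corresponds to 45.9% of control, with a 95% confidence interval of −1.75 to −0.49 and an adjusted p of 0.0202 in limma. Without replicate 2 the mean was −0.78 (limma adjusted p = 0.00115), and without replicate 3 the call was lost (limma adjusted p = 0.0757).

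Ckmt2, the mitochondrial creatine kinase of striated muscle, was close to background. Its probe was well above background in IFN-γ-treated cells on 3 of 4 arrays and in control cells on 0 of 4. The log2 intensity was 6.35, 6.28, 6.30 and 6.25 in IFN-γ-treated cells, against 6.30, 6.15, 6.13 and 6.22 in control cells. These values overlapped, and the gene entered the test through the IFN-γ channel alone. The mean log2 ratio was 0.09 ± 0.06, with a 95% confidence interval of −0.06 to 0.24 that includes no change and a limma adjusted p of 0.294. Its sign depended on the normalisation: the ratio was −0.59 under median centring and −1.27 when arrays were centred on the tested genes.

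Among the enzymes of glycogen breakdown and glycolysis, all 3 genes fell, where 13.9% of all tested genes did. None of the 3 overlapped between the groups, where 12.5% of all genes had every IFN-γ value below every control value. Pygm, muscle glycogen phosphorylase, had log2 intensities of 9.73, 9.11, 9.26 and 9.22 in IFN-γ-treated cells and of 10.17, 9.78, 10.00 and 9.98 in control cells. The highest IFN-γ value, on replicate 1, was just below the lowest control value, on replicate 2. Its ratios of −0.44, −0.67, −0.73 and −0.76 averaged −0.65 ± 0.15 (63.7% of control, limma adjusted p = 0.00254).

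Pgam2, the muscle form of phosphoglycerate mutase, had log2 intensities of 9.72, 9.80, 9.72 and 9.79 in IFN-γ-treated cells, against 10.62, 10.90, 11.02 and 10.32 in control cells. The 4 IFN-γ values were almost the same (SD 0.04), and the control values spread more (SD 0.31). The ratios were −0.90, −1.09, −1.30 and −0.53, with a mean of −0.96 ± 0.33 (51.6% of control, limma adjusted p = 0.00351).

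Eno3, the muscle form of enolase, had log2 intensities of 15.70, 15.49, 15.74 and 15.57 in IFN-γ-treated cells, against 16.40, 16.59, 16.67 and 16.16 in control cells. The groups were well apart. The ratios of −0.70, −1.11, −0.93 and −0.59 averaged −0.83 ± 0.23 (56.1% of control, limma adjusted p = 0.00259). Over all genes, 12.5% had all IFN-γ values below all control values, and 4 of the 9 genes did (Ckm, Pgam2, Eno3 and Pygm).

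Mb, which encodes myoglobin, did not pass the test. Its log2 intensity was 13.10, 12.23, 12.89 and 12.38 in IFN-γ-treated cells and 13.01, 13.45, 13.20 and 12.63 in control cells. The groups overlapped, and replicate 1 was slightly higher with IFN-γ. The ratios of 0.08, −1.22, −0.31 and −0.25 averaged −0.43 ± 0.56, with a limma adjusted p of 0.155. The 95% confidence interval of −0.92 to 0.07 includes both no change and a fall of the size seen in Eno3. Without replicate 2 the mean was −0.16 (limma adjusted p = 0.189).

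**Figure D2:**
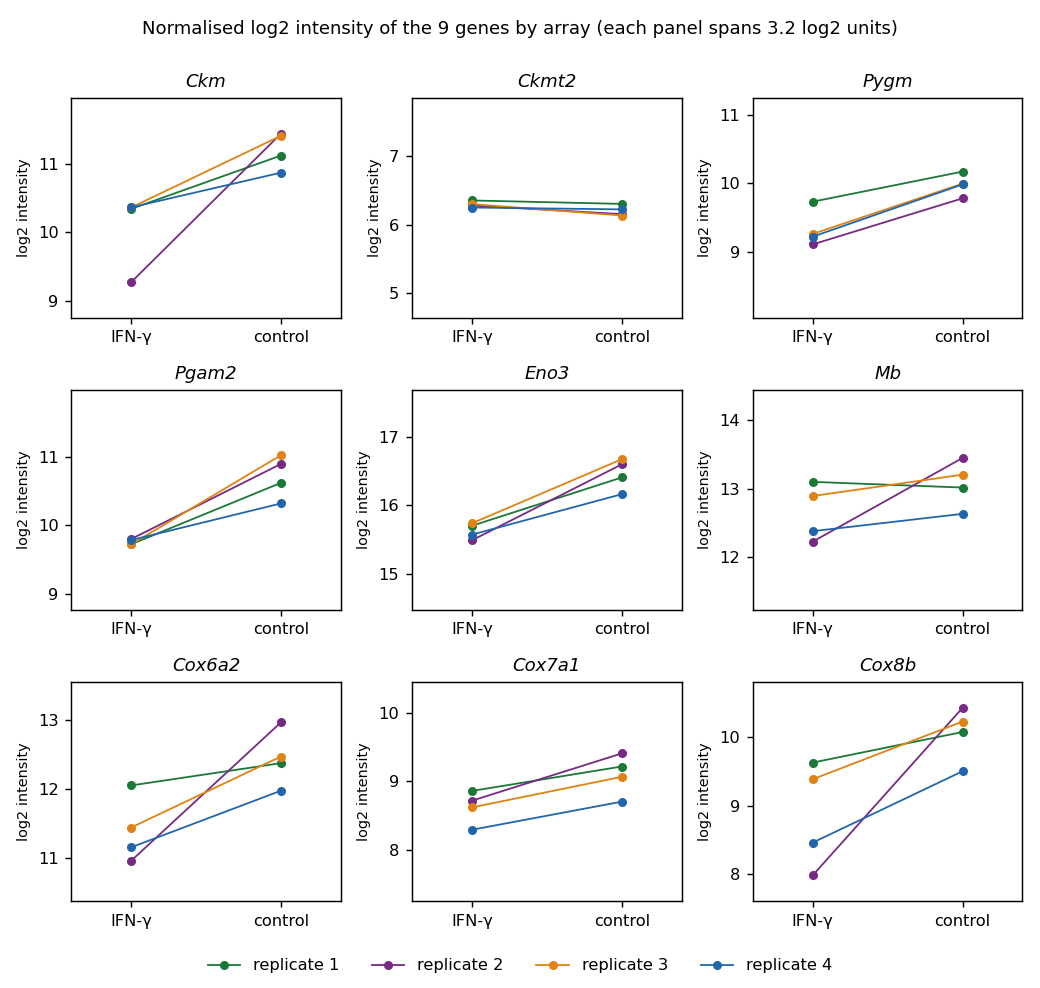
Normalised log2 intensity (y axis) of each gene in IFN-γ-treated and control cells, with 1 line for each of 4 arrays and the same span in every panel. Lines run upward from IFN-γ to control on all 4 arrays for 7 genes, and the purple line of replicate 2 is the steepest for Ckm, Eno3, Mb and the 3 oxidase subunits.

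The 3 subunits of cytochrome c oxidase fell as well, and all 3 overlapped between the groups. Cox6a2, the striated-muscle form of subunit 6A, had log2 intensities of 12.05, 10.95, 11.44 and 11.15 in IFN-γ-treated cells, against 12.38, 12.97, 12.47 and 11.98 in control cells. On every array the IFN-γ value was below its own control, but the IFN-γ value of replicate 1 was above the control value of replicate 4. The ratios were −0.33, −2.02, −1.03 and −0.83 (mean −1.05 ± 0.71, 48.3% of control, limma adjusted p = 0.0231).

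Cox8b, the form of subunit 8 found in striated muscle and brown fat of mice, had log2 intensities of 9.63, 7.99, 9.39 and 8.46 in IFN-γ-treated cells, against 10.07, 10.43, 10.23 and 9.50 in control cells. Replicate 2 again had the lowest IFN-γ and the highest control value. Its ratios of −0.45, −2.44, −0.84 and −1.04 had the widest spread of the 9 genes (mean −1.19 ± 0.87, 43.8% of control, limma adjusted p = 0.0287).

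Cox7a1, the striated-muscle form of subunit 7A, had log2 intensities of 8.86, 8.72, 8.62 and 8.30 in IFN-γ-treated cells, against 9.22, 9.41, 9.07 and 8.70 in control cells. The ratios of −0.36, −0.69, −0.44 and −0.41 were close to each other (mean −0.47 ± 0.15, 72.0% of control, limma adjusted p = 0.00657). Without replicate 2, Cox6a2 averaged −0.73 and Cox8b −0.77, both still called. Without replicate 3 the calls of both were lost (limma adjusted p = 0.0860 for Cox6a2 and 0.0760 for Cox8b), and without replicate 4 as well (0.0711 for Cox6a2 and 0.0899 for Cox8b).

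Across arrays the 9 genes had medians of −0.44, −1.11, −0.84 and −0.53 on replicates 1 to 4. Replicate 2 held the lowest value for 6 of the 9 genes, against 39.4% of all genes, and replicate 1 held the highest value for 5. For Ckm, Cox6a2, Cox8b and Mb, which had the widest SDs, replicate 2 was also the value furthest from the others, while Pygm, Cox7a1 and Eno3 had SDs of 0.15 to 0.23. The unpaired test of the study's methods called 4 of the 9 genes lower (Ckm, Pgam2, Eno3 and Pygm), against 9.58% of all genes. Without replicate 3, limma called 4 of the 9 lower (Pgam2, Eno3, Pygm and Cox7a1), against 5.91% of all genes, and without replicate 4 it called 5, against 6.9%. Genes lower on all 4 arrays made up 22.8% of those measured on every array, and 7 of the 9 genes were.

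Each of 8 genes was set beside the counterpart isoform that most other cells use, taken from the same arrays. The question was whether both forms of an enzyme moved alike. The difference between the ratios was tested on the 4 arrays with a two-sided exact sign-flip permutation test, for which the smallest p possible is 0.125, so no pair could pass the threshold, and p-values were adjusted over the 8 pairs.

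Pgam2 and Pgam1, the brain-type phosphoglycerate mutase, moved in opposite directions after loess. Under median centring Pgam2 was near 0, which is 0.70 below the all-gene median of that setting. Pgam1 was called higher, with a mean ratio of 0.60 ± 0.20 (limma adjusted p = 0.00514), and Pgam2 minus Pgam1 was −1.77, −1.48, −1.88 and −1.11. The mean difference of −1.56 ± 0.34 was negative on 4 of 4 arrays (exact p = 0.125, adjusted 0.167). Eno3 and Eno1, the ubiquitous enolase, did likewise, though Eno3 was positive (0.21) under median centring, 0.49 below that all-gene median. Eno1 was called higher at 0.29 ± 0.14 (limma adjusted p = 0.0273), and Eno3 minus Eno1 averaged −1.13 ± 0.25, negative on 4 of 4 arrays. The probes may not separate Eno1 from its near-identical copy Eno1b, which was called higher at 0.30 ± 0.18 and read 0.25 ± 0.50 on its other probe. Pygb, the brain-type glycogen phosphorylase, was called higher at 0.40 ± 0.09 (limma adjusted p = 0.00657), and Pygm minus Pygb averaged −1.05 ± 0.21, again negative on 4 of 4 arrays. Of 13 tested counterparts, 5 were called higher, where 19.8% of all tested genes were. The count was 2 without replicate 1, 3 or 4 (all genes 13.2%, 10.2% and 11.5%). It was 3 with the ratios of the scanner software (19.3%) and with the unpaired test of the study's methods (16.5%).

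The creatine kinases and oxidase subunits gave other patterns. Ckb, the brain-type creatine kinase, was called lower like Ckm (−0.68 ± 0.33, limma adjusted p = 0.0109), and Ckm minus Ckb was −0.45 ± 0.40 with every array negative. Cox8a, the liver-type subunit 8, was called lower at −0.46 ± 0.08 (limma adjusted p = 0.00400). Cox8b minus Cox8a was −0.73 ± 0.82 and positive on replicate 1 (0.04), with an exact p of 0.25 (adjusted 0.286). Cox6a1 did not pass (0.01 ± 0.14), and Cox6a2 minus Cox6a1 was −1.06 ± 0.65 with every array negative. Cox7a2 did not pass (−0.24 ± 0.49), and Cox7a1 minus Cox7a2 was −0.24 ± 0.35, positive on replicate 2 (0.20), with an exact p of 0.375. Ckmt2 minus Ckmt1, a ratio of probes at the limit of detection for Ckmt2, was 0.25 ± 0.05 and turned to −1.45 under both forms of centring. In 5 of the 8 pairs the muscle-type gene was lower relative to its counterpart on all 4 arrays.

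**Figure D3:**
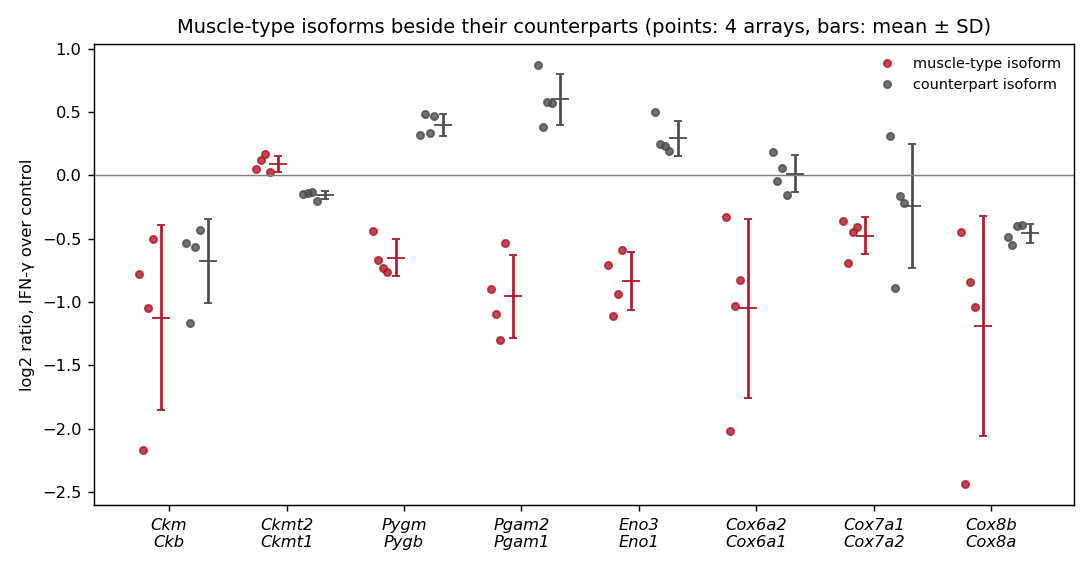
Log2 ratio of IFN-γ-treated over control (y axis) on 4 arrays for each muscle-type gene (red) and its counterpart (grey), with mean ± SD. Pgam1, Eno1 and Pygb lie above 0 beside muscle-type forms below 0, while Ckb and Cox8a lie below 0 like Ckm and Cox8b. Under median centring, Pygm and Eno3 have positive means too, still below their counterparts and below the all-gene median of 0.70.

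The other genes of the same pathways were taken from lists by function. Over all tested genes, 13.9% were called lower and 19.8% higher after loess. In creatine and adenylate metabolism, 6 of 15 tested genes were called lower and 2 higher (median −0.17), and without replicate 1, 3 or 4 the lower count was 3, 2 or 3. Median centring gave 0 lower and 11 higher, where 16.9% and 67% of all tested genes were. Centring on the tested genes gave 3 lower and 4 higher, where 35% and 30% of all tested genes were. Genes called lower after loess included Adssl1, the muscle adenylosuccinate synthase (−0.97 ± 0.36), and adenylate kinase Ak1 (−0.49 ± 0.34). Gatm and Gamt, the enzymes that make creatine, were also among them (−0.77 ± 0.51 and −0.71 ± 0.29). Slc25a4, the muscle adenine nucleotide carrier, did not pass at 0.12 ± 0.12.

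Glycogen turnover split both ways, with 6 of 17 genes called lower and 3 higher (median −0.04). The lower count was 2 without replicate 3 and 1 without replicate 4. Median centring gave 3 lower and 13 higher, where 16.9% and 67% of all tested genes were. Centring on the tested genes gave 4 lower and 8 higher, where 35% and 30% of all tested genes were. Phkg1, the catalytic subunit of muscle phosphorylase kinase, which activates Pygm, was called lower at −1.001 ± 0.544 (limma adjusted p = 0.0119). Phkb, a regulatory subunit of the same kinase, was called higher at 0.72 ± 0.10, though its other probe read 0.23 ± 0.10. The muscle glycogen synthase Gys1 was called lower (−0.52 ± 0.25), Pgm2 higher (0.67 ± 0.15), and Pgm1 did not pass (0.10 ± 0.16).

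Among 23 tested genes of glycolysis and lactate metabolism, 4 were called lower and 4 higher (median 0.05), and 1 lower and 1 higher without replicate 3 or without replicate 4. Median centring gave 0 lower and 20 higher, where 16.9% and 67% of all tested genes were. Centring on the tested genes gave 5 lower and 12 higher, where 35% and 30% of all tested genes were. Pfkm, the muscle phosphofructokinase, fell by 0.70 ± 0.11 on the log2 scale (limma adjusted p = 0.0015), a size near that of Pygm and Eno3. Aldoc (−0.56 ± 0.46) and the liver-type phosphofructokinase Pfkl (−0.31 ± 0.11) were called lower, and the ubiquitous hexokinase Hk1 was called higher (0.56 ± 0.09). Gapdh did not pass at 0.11 ± 0.14. Of the 10 other cytochrome c oxidase subunits, median centring gave 0 lower and 8 higher, where 16.9% and 67% of all tested genes were. After loess 3 of the 10 were called lower and 0 higher (median −0.28). These were Cox7c (−0.65 ± 0.30, with other probes at −0.44 and −0.11), Cox5b (−0.36 ± 0.15) and Cox4i2 (−0.33 ± 0.07).

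Regulators of muscle metabolic genes had 6 of 26 called lower and 5 higher (median −0.02), against 2 lower and 2 higher without replicate 3 and 3 of each without replicate 4. Ppargc1b, a coactivator of mitochondrial genes (−0.74 ± 0.40), Prkag3, a muscle subunit of AMP-activated protein kinase (−0.71 ± 0.26), and Epas1 (−0.44 ± 0.19, its other probe at 0.29) were called lower. Klf15, a factor that controls muscle fuel use, was called higher (0.45 ± 0.12). Its probe was well above background in control cells on 1 of 4 arrays, so it entered the test through the IFN-γ channel alone. Myog, the myogenic factor myogenin that binds E-boxes, did not pass at −0.01 ± 0.40. The 6 lists of counterparts, pathways and regulators together held 27 genes called lower and 19 higher of 104 tested (26.0% and 18.3%). Over all tested genes the shares were 13.9% and 19.8%, so the share called higher was near that of all genes.

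**Figure D4:**
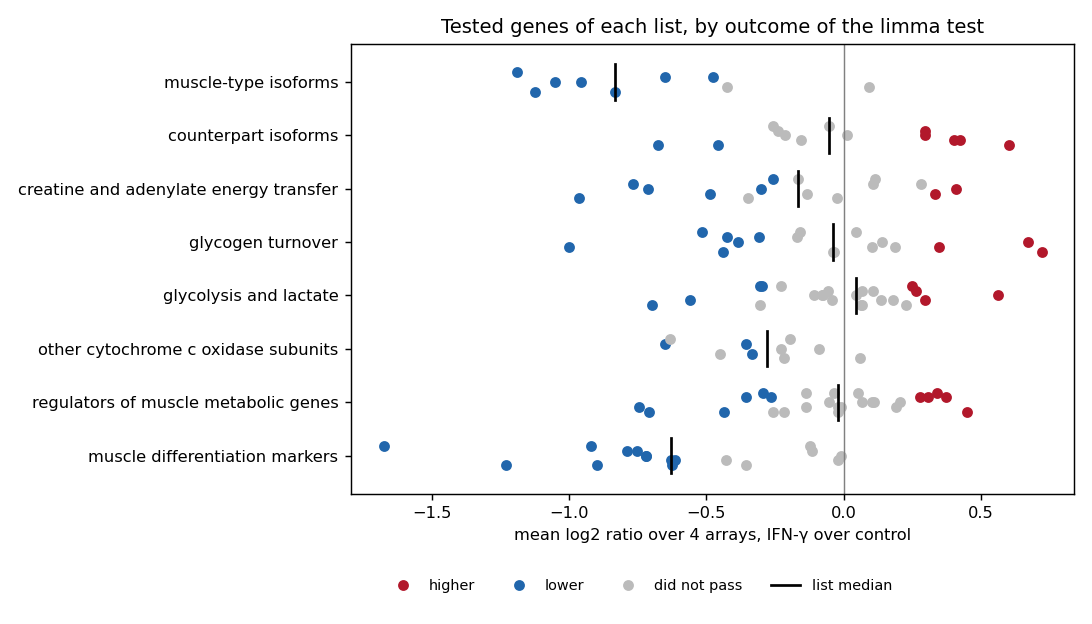
Mean log2 ratio over 4 arrays, IFN-γ over control (x axis), for every tested gene of 8 lists (rows), coloured by the outcome of the limma test, with list medians as black lines. The muscle-type isoforms and the muscle differentiation markers lie furthest to the left, with medians of −0.83 and −0.63. The other cytochrome c oxidase subunits lie mostly below 0 (median −0.28, 3 of 10 called lower and 0 higher). The remaining lists straddle 0. Under median centring the median of the 9 isoforms is −0.01, below an all-gene median of 0.70. In that setting 10 of the 17 muscle differentiation markers are called higher, as are 67% of all tested genes.

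Markers of the differentiated state moved with these genes. Of 17 tested muscle differentiation markers, 11 were called lower and 0 higher (median −0.63), where 13.9% and 19.8% of all tested genes were. Under median centring 1 was called lower and 10 higher, where 16.9% and 67% of all tested genes were. Centring on the tested genes gave 10 lower and 1 higher, where 35% and 30% of all tested genes were. The largest falls were those of Mylpf, a fast myosin light chain (−1.67 ± 0.36), Des, desmin (−1.23 ± 0.26), Tnni2, fast troponin I (−0.92 ± 0.30), and Mymk, a fusion protein of myoblasts (−0.90 ± 0.42). Acta1, skeletal actin, did not pass at −0.36 ± 0.57. The summed intensity of the markers was 459576 to 542149 in IFN-γ-treated cells, against 638000 to 888700 in control cells. That of the 9 genes was 55537 to 70547, against 88941 to 126866. Both ranges were apart. Each sum is on the linear scale, so its brightest genes weigh most. Among the 9 genes this is Eno3 (mean log2 intensity 16.04), ahead of Mb (12.86). The values of Mb, Ckmt2 and the oxidase subunits overlapped between the groups. The part of the differentiated state in the fall of the 9 genes was not tested.

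Fibroblast markers moved the other way, with 6 of 8 tested genes called higher and 0 lower (median 0.40), where 19.8% and 13.9% of all tested genes were. Under median centring 7 were called higher and 0 lower, where 67% and 16.9% of all tested genes were. The higher count was 3 without replicate 3, without replicate 4 and with the unpaired test of the study's methods, and 1 marker was called lower when arrays were centred on the tested genes. Postn (0.73 ± 0.33), Pdgfra (0.67 ± 0.17), Pdgfrb (0.65 ± 0.25) and Col1a1 (0.46 ± 0.29) were called higher and Col1a2 did not pass at 0.23 ± 0.23. Their summed intensity was 165848 to 184545 with IFN-γ and 116695 to 160879 in control cells, and the part of these cells or genes in the result was not tested. Cox8b and Cox7a1 are also expressed in brown fat, but Ucp1, Prdm16, Adipoq, Fabp4, Plin1 and Elovl3 were not well above background, and none of the 4 brown fat markers tested was called by limma after loess. Under median centring 2 of the 4 were called lower and 1 higher, and 3 lower and 1 higher when arrays were centred on the tested genes. Over all tested genes, the second setting gave 35% lower and 30% higher. Of the cardiac markers, Myl4 (−0.53 ± 0.42) and Tnni3 (−0.28 ± 0.18) were called lower and 0 of 8 higher, and the summed intensities of the list overlapped between the groups. The lower count was 0 to 1 without 1 array and 0 with the unpaired test of the study's methods. Median centring gave 3 lower and 4 higher, and centring on the tested genes gave 4 lower and 0 higher.

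The genes with array profiles most like the mean of the 9 genes were named by Euclidean distance over 4 arrays, among 15602 genes. They were Srpk3 (distance 0.04), Myl1 (0.14), Wnt10a (0.16), Hjv (0.18) and Reep1 (0.19). Srpk3, a protein kinase of striated muscle, had log2 ratios of −0.40, −1.26, −0.72 and −0.57, against −0.42, −1.25, −0.72 and −0.54 for the mean of the 9 genes. Myl1, a fast myosin light chain, is also one of the muscle differentiation markers above.

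**Figure D5:**
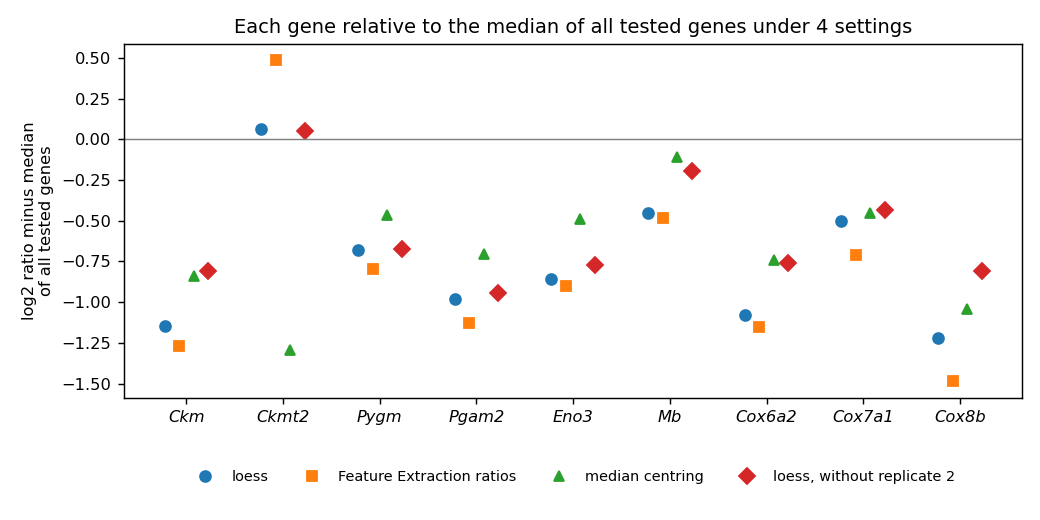
Log2 ratio of each gene minus the median of all tested genes (y axis) under 4 settings: loess, the ratios of the scanner software, median centring, and loess without replicate 2. The 7 genes that fell are below the all-gene median in every one of these settings. Mb lies nearer to it than these 7 in each setting, and Ckmt2 is nearest to it under loess, with and without replicate 2, but changes sign under median centring.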

How the data were processed

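RNA of IFN-γ-treated (Cy5) and control (Cy3) C2C12 cells was measured on 4 arrays. The deposited scanner files hold median spot intensities and local backgrounds, which per the file headers came from Feature Extraction 10.7.3.1, and log10 ratios of Cy5 over Cy3 (log10 times 3.322 gives log2). A value table of the authors is on a log2 scale. It equalled log2 of the processed Cy5 over Cy3 intensities within 0.0001 for 100% of 39030 probes with 1 spot, with column medians of −0.125 to −0.105, so its scale and direction are known and no further centring was seen. Per the series' design text, the authors filtered on detection flags in GeneSpring GX 12 and used an unpaired test with a fold change of 2.

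Background was corrected with normexp (offset 50) on medians, since the files hold medians where the plan allowed means, and ratios were normalised by loess in limma 3.58.1 (R 4.3.3). Control spots had weight 0, and 268 to 370 outlier-flagged spots per array were left out. Of 39429 probes, 26055 matched 1 symbol in the RefSeq table and 13374 none. Probes were tested when 1 channel was well above background on 3 or more of 4 arrays, each gene by its brightest, with lmFit and eBayes, two-sided, and Benjamini-Hochberg adjustment over 15674 genes at 0.05. Of these, 1282 were above background in the control channel on no array. Channel intensities were taken after loess and Aquantile. The number of arrays limits the precision. The test was checked on simulated data.

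The 9 genes and all lists were chosen with earlier results of these data known. Named genes were the 9, the counterparts, up to 4 called genes of each list with the largest change, the brightest gene that did not pass (the 2 brightest where none was called), and the 5 closest profiles. Alternatives changed background, normalisation, filter, probe choice, arrays, values and test.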

Additional observations from a re-analysis of the deposited data

Results flagged for a closer look

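For 2 genes of the pathway lists, 1 array stood far from the other 3 by Dixon's ratio, among 75 genes examined, where chance flags about 5%. Gamt, which makes creatine, had a log2 ratio of −1.14 on replicate 2, against −0.61 to −0.53 on the other arrays. Cox6c, a cytochrome c oxidase subunit, had −1.17 on replicate 2, against −0.27 to −0.10 on the others. None of the 9 muscle-type genes was beyond the critical value, although replicate 2 held the lowest ratio of 6 of them.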

How the results depend on the processing

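The log2 ratios of the 9 genes were recomputed under 15 alternatives (14 for Ckmt2): of 134 values, 116 kept direction and side of the threshold, 12 kept the direction but lost the call, and 6 changed sign. Median centring without loess gave 5 of the 6 sign changes and 4 of the 12 lost calls, and the other lost calls came without replicate 3 or 4 or with the methods' t-test. It put Ckmt2 at −0.59, Cox7a1 at 0.25, Eno3 at 0.21, Mb at 0.59 and Pygm at 0.23, with the median of the 9 genes at −0.0078, 1 called higher (Mb) and 1 called lower (Ckmt2). Relative to its all-gene median of 0.70, the 7 genes that fell lay between −1.04 (Cox8b) and −0.45 (Cox7a1). Centring on the tested genes put Ckmt2 at −1.27, and Ckmt2 minus Ckmt1 was −1.45 under both. The methods' t-test called 4 of the 9 genes lower (Ckm, Pgam2, Eno3 and Pygm, of which Ckm passed the 2-fold limit), against 9.58% of all genes, with Benjamini-Hochberg adjusted p-values of 0.0566 for Cox6a2, 0.0945 for Cox8b and 0.120 for Cox7a1; its cause was not tested. Leaving out 1 array gave 4 to 7 genes called lower (4 without replicate 3, where 5.91% of all genes were called lower) and medians of −0.91 to −0.73. The count of pairs with the muscle-type gene lower on every array was 5 to 7 over all alternatives.

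Of the 104 tested genes in the 6 pathway lists, 19 were called higher and 27 lower, where 19.8% and 13.9% of all tested genes were. The higher count was 10 with the scanner's log ratios and with the authors' table, and 12 when the probes of a gene were averaged. It was 38 with centring on the tested genes (all genes 30%), 82 with median centring (all genes 67%), and 9 to 21 without 1 array. The lower count was 7 with median centring (all genes 16.9%), 16 with the methods' t-test (all genes 9.58%), and 11 to 34 without 1 array. The cause of these shifts was not tested.

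Each ratio already sets treated against control RNA on 1 array, so the limma test is paired by array. No further pairing of samples was possible because every sample belongs to the same group. Without a dye swap, a dye bias of a probe cannot be told apart from the treatment. Ckmt2 was limited by signal over background, which was 1.42 to 1.87 in the IFN-γ channel and 1.14 to 1.41 in the control channel.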

Other observations

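Kdr, a receptor for vascular endothelial growth factor, was called lower at −1.02 ± 0.28 (limma adjusted p = 0.00205), the only call among 4 endothelial markers tested, while Cdh5, Tie1, Emcn and Esam were not well above background and Pecam1 did not pass (−0.19 ± 0.14). The summed intensity of the endothelial markers tested was 1791 to 2624 in IFN-γ-treated cells, against 3267 to 4591 in control cells. Kdr was by far the brightest of them (mean log2 intensity 11.09, against 8.38 for Pecam1), so this sum mostly repeats its fall. Among 7 macrophage markers tested, Cd14 was called higher (0.59 ± 0.15) and Csf1r lower (−0.40 ± 0.04, with other probes at −0.06 and 0.03), while Cd68, Lyz2 and Tyrobp were not tested. Itgam did not pass at −0.14 ± 0.35.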
